A study of Rattus norvegicus with 9 samples.

Results

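The 10 genes described here encode the MHC class II antigen-presenting machinery and some of the genes that mark or equip dendritic cells: Cd74, RT1-Ba, RT1-Bb, RT1-Da, RT1-Db1, Ciita, Cd207, Ccr7, Cd80 and Cd86. They were chosen by name, as every probe set whose deposited gene symbol equalled one of these, and all 10 were on the array, through 12 of 43685 probe sets. Cd86 and Ciita had 2 probe sets each, of which the brighter one on average was used and the dimmer is given beside it. Skin of 4 Sprague Dawley rats treated with carrageenan (CGN), a seaweed polysaccharide that provokes acute inflammation and pain, was compared with skin of 5 untreated rats of the same strain. CGN was dosed at 30 mg/kg, pressure pain and paw swelling were assessed after 3 hours and the skin was taken after 4 hours, per the labels' protocols, which do not give the route. For the controls no hour of harvest or paw test is given, so CGN and the handling that came with it cannot be told apart. Neither the age or sex of the rats nor the site of the skin is given.

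MHC class II molecules are pairs of an alpha and a beta chain that carry peptides from engulfed material to the cell surface for helper T cells. In the rat the RT1-B pair is made from RT1-Ba and RT1-Bb, and the RT1-D pair from RT1-Da and RT1-Db1. Cd74, the invariant chain, fills the binding groove of new class II molecules and escorts them to the endosome, and Ciita is the co-activator that switches on the class II genes. Cd207 (langerin) is a lectin of Langerhans cells, the dendritic cells of the epidermis. Ccr7 is the chemokine receptor that guides dendritic cells and lymphocytes into lymph vessels and lymph nodes, and Cd80 and Cd86 are co-stimulatory ligands of Cd28 and Ctla4 on T cells.

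The promoters of the 4 class II chain genes are shown because Ciita acts on them through a shared arrangement of short elements, the X and Y boxes, and because the alpha and beta chains received different calls in CGN skin. Different calls are not a tested difference. Exact permutation tests of alpha against beta chain did not pass (adjusted p = 0.686 for RT1-B and 0.635 for RT1-D), and a lone unequal pair could not have passed. Each line gives the 160 bases before the annotated start, from position -160 to -1, in the direction of the gene, from RefSeq on assembly GRCr8. Capitals mark ACNGATG, letters from the X box, CTGATTGG, the Y box, and TGACGTCA, the cyclic AMP response element, each searched on both strands of the whole table entry, from 250 bases before the start to 50 after it.
RT1-Da, chr20:4515255-4515414, plus strand: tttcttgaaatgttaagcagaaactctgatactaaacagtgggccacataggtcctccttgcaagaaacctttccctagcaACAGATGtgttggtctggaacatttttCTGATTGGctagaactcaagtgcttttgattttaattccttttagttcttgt
RT1-Db1, chr20:4560163-4560322, minus strand: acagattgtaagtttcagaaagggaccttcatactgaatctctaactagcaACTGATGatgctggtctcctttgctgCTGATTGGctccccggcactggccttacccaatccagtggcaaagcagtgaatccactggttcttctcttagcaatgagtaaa
RT1-Ba, chr20:4576897-4577056, plus strand: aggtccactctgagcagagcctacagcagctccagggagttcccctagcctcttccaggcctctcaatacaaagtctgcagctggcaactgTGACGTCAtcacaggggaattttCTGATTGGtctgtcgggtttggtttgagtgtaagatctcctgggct
RT1-Bb, chr20:4604119-4604278, minus strand: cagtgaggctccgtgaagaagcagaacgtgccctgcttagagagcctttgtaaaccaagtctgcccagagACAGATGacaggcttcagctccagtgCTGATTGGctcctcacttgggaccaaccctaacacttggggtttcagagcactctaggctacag

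All 4 chain promoters held CTGATTGG, which 3.50% of the 33469 entries of the promoter table hold in a window of that same span. ACNGATG, held by 10.2% of promoters, stood before it in RT1-Da, RT1-Db1 and RT1-Bb, with 20, 19 and 19 bases between them. ACNGATG and CTGATTGG occurred together, at any distance and on either strand, in 97 entries (0.29%). In RT1-Ba the letters ACNGATG were not in the window, and TGACGTCA (1.83% of promoters) lay at position -69, with CTGATTGG at -46. In that order on the gene's strand and with 15 to 25 bases between them, a gap chosen to hold the member promoters after these were read, the pair remained in the entries of RT1-Da, RT1-Db1, RT1-Bb and the neighbouring class II gene RT1-Db2, which is a description and no test. Of the 10 members 8 had a promoter entry, and the 4 outside the class II chains, Cd74, Cd207, Cd80 and Cd86, held none of the 3 motifs. Only exact letters were sought, so a missing match, as in RT1-Ba or Cd74, does not show that a box is absent. Ciita and Ccr7 were not in the table.

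The samples differed in more than the inflammatory genes. Skeletal muscle transcripts were far lower in CGN: 15 of 16 measured muscle genes fell, and the mean log2 level of this list lay between 8.64 and 11.31 in controls. In CGN it was 5.44 in replicate 2, 5.59 in replicate 3, 7.84 in replicate 4 and highest in replicate 1, which still lay below every control. Of 7 keratinocyte markers, which check the label skin, Dsg3 rose and Tp63 fell, and the summed intensity of the list was 57006 to 68674 in controls and 59771 to 63671 in CGN. Because muscle content moved with the groups, the fit was repeated with the muscle level as a covariate. In bulk tissue, fewer cells of a type and less RNA per cell cannot be told apart.

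In the limma fit over 19102 genes, 5 of the 10 members were higher in CGN and 0 were lower at an adjusted p under 0.05: Cd207, RT1-Ba, RT1-Da, Cd80 and Cd86. Over all genes, 8.72% passed as higher and 13.5% as lower. The median log2 change of the members was 0.45, against -0.01 over all genes, and 9 of the 10 estimates lay above 0, as did 47.1% of all genes. In 3 members (Cd207, RT1-Ba and Cd80) every CGN sample exceeded every control, a pattern that 8.44% of all genes showed. With the muscle covariate 0 members passed, against 2.20% of all genes higher in that fit, and their standard errors rose, for Cd207 from 0.27 to 0.45. In that fit the log2 changes were 0.45 ± 0.29 for RT1-Ba (adjusted p = 0.522), 0.47 ± 0.39 for RT1-Da (0.635), 0.51 ± 0.21 for Cd80 (0.279), 0.33 ± 0.23 for Cd86 (0.566) and 0.54 ± 0.36 for Cd74 (0.528).

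**Figure D1:**
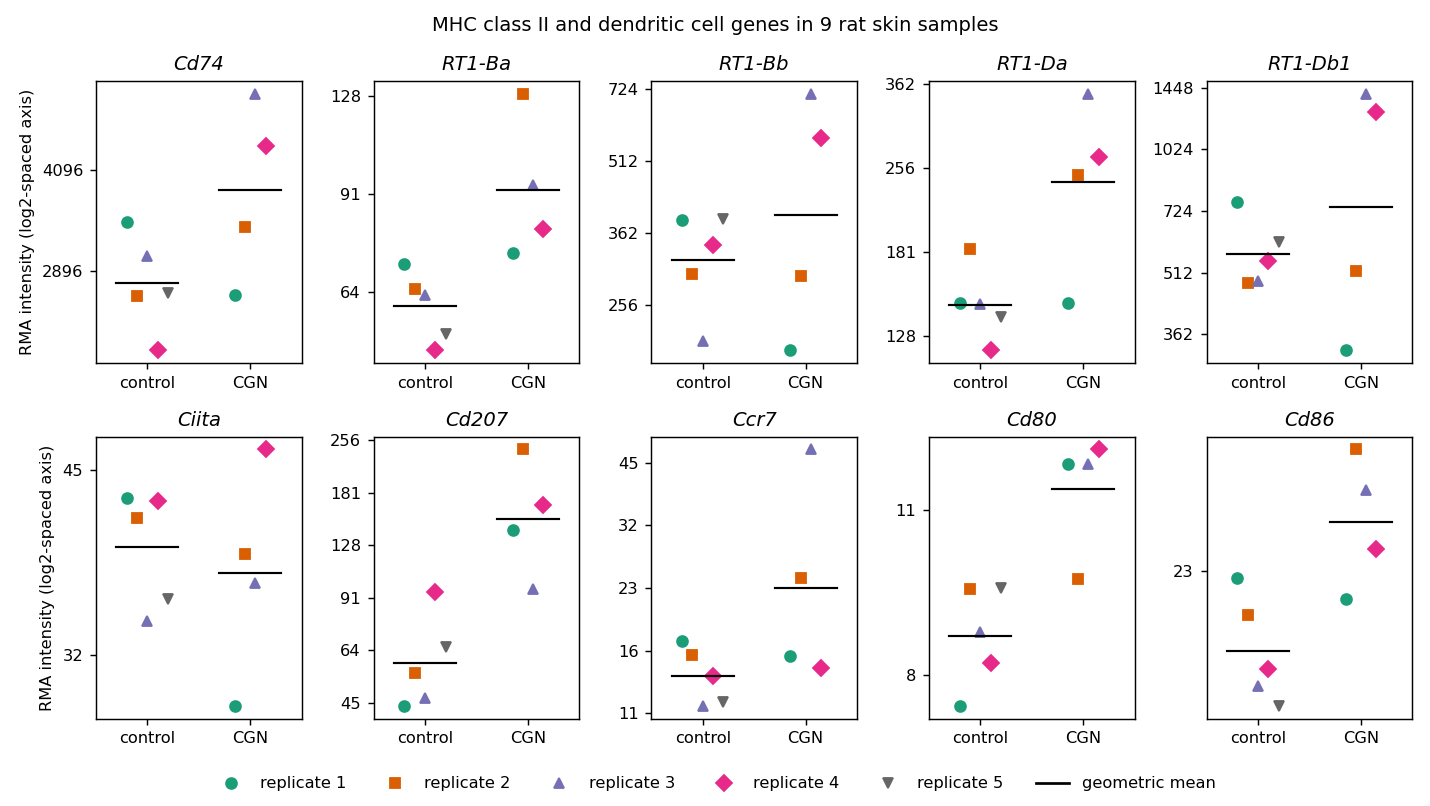
Deposited RMA intensity of each member (main probe set) in 5 control and 4 CGN samples, on a log2-spaced vertical axis that differs between panels, with 1 symbol per replicate number and a line at the geometric mean. The CGN points of Cd207, RT1-Ba and Cd80 all lie above the control points, while those of RT1-Bb and RT1-Db1 lie on both sides of them, with replicates 3 and 4 high and replicate 1 low.

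The alpha chains RT1-Ba and RT1-Da rose in CGN. RT1-Ba had intensities of 70.63, 64.67, 63.36, 52.05 and 55.17 in control replicates 1 to 5. In CGN replicates 1 to 4 it had 73.35, 128.75, 93.18 and 79.91. The groups did not overlap, replicate 2 was the highest, and RT1-Ba rose 1.51-fold (95% interval 1.18 to 1.93, log2 change 0.59 ± 0.16 SE, limma adjusted p = 0.0234). RT1-Da had 146.64, 183.39, 146.29, 120.9 and 138.77 in controls. In CGN it had 146.74, 249.1, 347.71 and 268.01, so that CGN replicates 2, 3 and 4 lay above every control and replicate 1 among them. RT1-Da rose 1.66-fold (1.19 to 2.31, log2 change 0.73 ± 0.22, adjusted p = 0.0337).

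The beta chains did not pass, and their CGN samples lay on both sides of the controls. RT1-Bb had 385.93, 297.28, 215.21, 342.27 and 388.08 in controls. It had 205.56, 293.69, 708.88 and 572.09 in CGN, with replicate 1 below every control, replicate 2 within their range and replicates 3 and 4 above every control. RT1-Db1, measured by a probe set named as possibly shared with related transcripts (suffix _s_at), had 762.08, 482.11, 488.99, 545.62 and 608.86 in controls. In CGN it had 331.07, 516.17, 1398.66 and 1260.63, the same order of samples as RT1-Bb. Neither passed (RT1-Bb log2 change 0.31 ± 0.33, adjusted p = 0.591, and RT1-Db1 0.38 ± 0.38, adjusted p = 0.557), and the intervals ran from -0.43 to 1.05 and from -0.46 to 1.22. The SD of RT1-Db1 on the log2 scale was 0.27 over the controls and 1.01 over the CGN samples, wider than in 99.3% of genes in CGN, where the median gene had 0.17. For RT1-Bb the SDs were 0.35 and 0.83. Leaving out CGN replicate 1 moved the change of RT1-Bb to 0.63 and that of RT1-Db1 to 0.77, and leaving out CGN replicate 3 moved them to 0.03 and 0.08.

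Cd74 was bright in every sample. Its intensities were 3423.73, 2661.13, 3052.47, 2210.57 and 2690.17 in controls. In CGN they were 2673.63, 3370.88, 5309.02 and 4437.04, again with replicates 3 and 4 above every control and the other 2 within their range. The log2 change of 0.46 ± 0.19 (95% interval 0.03 to 0.89) did not pass (adjusted p = 0.126). Without CGN replicate 1 it was 0.63 and passed (adjusted p = 0.0207). Deviations from the group means correlated at r = 0.95 between RT1-Bb and RT1-Db1, 0.87 between Cd74 and RT1-Db1 and 0.80 between Cd74 and RT1-Da, but at -0.03 between RT1-Ba and RT1-Bb, over 9 samples. RT1-Ba instead followed Cd86 (r = 0.86), and in both the CGN samples ran in the order 1, 4, 3, 2 from low to high. That is the reverse of the order of the muscle list in CGN, whose part in these results was not tested.

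The calls for the alpha chains depended on single samples. RT1-Da passed in 2 of 9 fits that each left out 1 sample, at an adjusted p of 0.000936 without CGN replicate 1 and 0.0350 without control replicate 2. Without control replicates 1, 3, 4 and 5 its adjusted p was 0.0582, 0.0572, 0.0735 and 0.0702, and without CGN replicates 2, 3 and 4 it was 0.0801, 0.0934 and 0.0943. RT1-Ba missed the threshold without control replicates 4 and 5 (0.0531 and 0.0564) and without CGN replicates 2 and 3 (0.0503 and 0.0562).

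**Figure D2:**
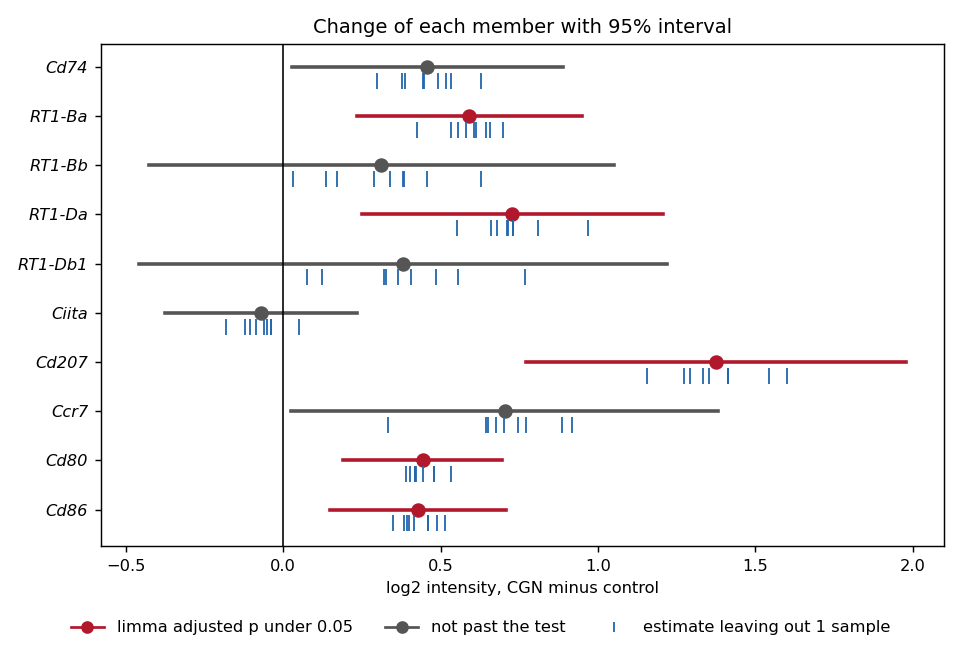
Log2 change (CGN minus control) of each member with its 95% interval from limma, n = 4 CGN and 5 control samples, and below each interval a tick for the estimate without each sample in turn. Cd207 changed most, at 1.37, and the intervals of RT1-Bb, RT1-Db1 and Ciita span 0.

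Ciita passed the test with neither of its probe sets. Its brighter probe set gave 42.97, 41.39, 34.13, 42.77 and 35.58 in controls. In CGN it gave 29.11, 38.71, 36.61 and 47.07, with 1 sample below and 1 above every control (log2 change -0.07 ± 0.14, 95% interval -0.38 to 0.24, adjusted p = 0.794). The other probe set, named by a RefSeq transcript, gave 24.62, 26.38, 25.22, 25.56 and 29.07 in controls and 21.73, 32.96, 35.42 and 29.57 in CGN, with replicates 2 to 4 above every control and replicate 1 below. Its change of 0.17 ± 0.13 did not pass either (adjusted p = 0.519 in the fit over all probe sets). Both probe sets were lowest in CGN replicate 1, which was also the lowest CGN sample for 7 of the 10 members.

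Among 10 measured factors that act on class II promoters, 1 rose and 2 fell. Over all genes 8.72% passed as higher and 13.5% as lower, so these counts lie near the shares over all genes. The same shares stand beside the list counts below. Spi1 (PU.1), a factor of myeloid cells and B cells, rose 1.93-fold (95% interval 1.51 to 2.47, adjusted p = 0.00207), from a geometric mean of 15.3 to 29.5. Rfxank, a subunit of the X box complex, fell by 0.44 ± 0.13 on the log2 scale (adjusted p = 0.0331), and Nfyc, a subunit of the Y box complex, fell by 0.27 ± 0.08 (adjusted p = 0.0293). The call of Nfyc was kept without control replicate 1 (adjusted p = 0.0185) and lost without any other single sample (0.0506 to 0.0769), and that of Rfxank was lost without control replicates 3 and 4 (0.0677 and 0.0721) and CGN replicates 2 and 4 (0.0612 and 0.0975). Neither passed with the muscle covariate (adjusted p = 0.288 for Nfyc and 0.226 for Rfxank), nor did Spi1 (0.240). The X box factor Rfx5 was at 0.05 ± 0.14 and Rfxap at -0.25 ± 0.10 (adjusted p = 0.869 and 0.105). The median log2 change of the 10 genes was 0.14.

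Genes of a class II accessory and processing list, which holds endosomal proteases, the DM and DO chains and others such as Cd63, were mostly higher. Of 10 measured, 6 rose and 0 fell, with a median log2 change of 0.50 against -0.01 over all genes. The cathepsin Ctss, which trims the invariant chain, rose 1.60-fold (1.27 to 2.02, adjusted p = 0.00873). The cathepsin Ctsl rose 1.47-fold (1.22 to 1.76, adjusted p = 0.00767), and the endosomal protease Lgmn rose 1.93-fold (1.37 to 2.72, adjusted p = 0.0111). RT1-DMb, a chain of the peptide exchange factor DM, rose by 0.68 ± 0.18 (adjusted p = 0.0200), and its partner RT1-DMa was at 0.48 ± 0.20 (adjusted p = 0.112). The chains of the DM inhibitor DO were at -0.14 ± 0.11 (RT1-DOa) and 0.10 ± 0.13 (RT1-DOb). RT1-DOa was dim, at a geometric mean of 11.2 in controls. Of the DM and DO chains only RT1-DMb passed. Also counted as higher were Ctsb (0.43 ± 0.10, adjusted p = 0.0125) and Cd63 (0.44 ± 0.14, adjusted p = 0.0454). None of the 10 passed with the muscle covariate, where the median was 0.43.

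Cd207 rose most among the members. It had 44.34, 55.19, 46.82, 94.02 and 65.5 in control replicates 1 to 5. In CGN replicates 1 to 4 it had 141.19, 240.85, 95.61 and 166.62. The groups did not overlap, but CGN replicate 3 exceeded the highest control by little. The rise was 2.59-fold (95% interval 1.71 to 3.94, log2 change 1.37 ± 0.27, adjusted p = 0.00473), and it passed in each of the 9 fits that left out 1 sample (log2 change 1.15 to 1.60, adjusted p = 0.00257 to 0.0181). With the muscle covariate it was 0.79 ± 0.45 (adjusted p = 0.451). Epcam, an adhesion molecule of Langerhans cells and other epithelia, was at 0.30 ± 0.27 (adjusted p = 0.504).

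Of 20 measured dendritic and Langerhans cell genes other than the members, 7 rose and 0 fell, with a median log2 change of 0.28. The chemokine Ccl17 rose 2.53-fold (2.11 to 3.02, adjusted p = 2.13e-05). The GM-CSF receptor chain Csf2ra rose 3.53-fold (2.72 to 4.59, adjusted p = 3.90e-05), and Tgfb1, the growth factor that maintains Langerhans cells, rose 2.01-fold (1.56 to 2.60, adjusted p = 0.00176). These are not restricted to dendritic cells. The classical dendritic cell genes Zbtb46, Flt3, Xcr1, Clec9a and Batf3 did not pass (adjusted p between 0.161 and 0.991). Zbtb46 was at 0.14 ± 0.11, Flt3 at 0.17 ± 0.18, Xcr1 at -0.01 ± 0.11, Clec9a at 0.00 ± 0.15 and Batf3 at 0.26 ± 0.12. They were dim, at geometric means in controls from 9.97 (Xcr1) to 38.8 (Flt3), against array medians of 16.7 to 17.8. No detection call shows whether these probe sets were above background. Other dendritic cell genes of the list did rise. Clec10a rose 1.69-fold (1.27 to 2.24, adjusted p = 0.0143), from a geometric mean of 299 in controls to 503 in CGN. Il23a rose 2.31-fold (1.68 to 3.16, adjusted p = 0.00206) and Ly75 1.29-fold (1.08 to 1.54, adjusted p = 0.0446). Itgax (CD11c), shared with other myeloid cells, rose by 0.61 ± 0.19 (adjusted p = 0.0439). With the muscle covariate 2 of the 20 passed, Ccl17 and Csf2ra.

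Ccr7 stood out in 1 sample. Its intensities were 16.85, 15.6, 11.79, 13.89 and 12.05 in controls. They were 15.51, 23.95, 48.7 and 14.5 in CGN, so that replicates 2 and 3 lay above every control and replicates 1 and 4 among them. The log2 change of 0.70 ± 0.31 (95% interval 0.03 to 1.38) did not pass (adjusted p = 0.136), and without CGN replicate 3 it was 0.33 (adjusted p = 0.274). With the muscle covariate it was 0.01 ± 0.50. The 4 CGN samples had the same order for Ccr7 as for the T cell list, whose mean log2 level was 5.03, 5.10, 5.38 and 4.84 in CGN replicates 1 to 4 and 4.63 to 4.74 in controls. The part of T cells, which also use Ccr7, was not tested.

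Of 7 genes of the Ccr7 ligands and lymph routes, 4 rose and 0 fell. Ccl19, a ligand of Ccr7, rose 1.90-fold (1.43 to 2.54, adjusted p = 0.00534), from 30.4 to 41.7 in controls to 52.4 to 105 in CGN, and the other ligand, Ccl21, was at 0.61 ± 0.22 (adjusted p = 0.0781). The chemokine receptor Cxcr4 rose 4.54-fold (3.28 to 6.29, adjusted p = 5.13e-05) and the mucin Pdpn, of lymphatic endothelium and other stroma, 3.42-fold (2.25 to 5.20, adjusted p = 0.00114). The lymphatic markers Prox1 and Lyve1 were at 0.10 ± 0.11 and -0.03 ± 0.20. Cxcr4 also passed with the muscle covariate, while Ccl19 was at 0.54 ± 0.32 (adjusted p = 0.464) and Pdpn at 1.69 ± 0.50 (adjusted p = 0.135).

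Cd80 and Cd86 both rose, at low intensity. Cd80 had 7.5, 9.58, 8.75, 8.2 and 9.61 in controls. It had 12.46, 9.78, 12.45 and 12.85 in CGN, where replicate 2 exceeded the highest control by little. The rise was 1.36-fold (1.14 to 1.62, adjusted p = 0.0172), in the range of values near the lowest of the table, 4.07, where no detection call shows whether the probe set was above background. It missed the threshold without CGN replicate 4 (adjusted p = 0.0575). Cd86 had 22.28, 20.45, 17.38, 18.07 and 16.59 in controls. It had 21.22, 30, 27.29 and 23.85 in CGN, with replicates 2 to 4 above every control and replicate 1 within their range.

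Cd86 rose 1.35-fold (1.11 to 1.63, adjusted p = 0.0328). Its dimmer probe set gave 6.99 to 8.7 in controls and 8.66, 11.83, 10.06 and 10.29 in CGN, a change of 0.33 ± 0.11 that did not pass in the fit over all probe sets (adjusted p = 0.0677). The Cd86 call was kept in 3 of the 9 fits that left out 1 sample, those without control replicate 1 (0.0212), control replicate 2 (0.0474) or CGN replicate 1 (0.0120). It missed the threshold without control replicates 3, 4 and 5 (0.0662, 0.0654 and 0.0779) and without CGN replicates 2, 3 and 4 (0.101, 0.0881 and 0.0565). The change of Cd80 differed from that of Cd86 by 0.01 on the log2 scale.

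Other genes of co-stimulation also rose. Of 14 measured, 5 rose and 0 fell, with a median log2 change of 0.15. Cd40, the receptor through which helper T cells activate dendritic cells, rose 2.56-fold (2.13 to 3.08, adjusted p = 2.30e-05). The maturation marker Cd83 rose 3.73-fold (2.62 to 5.33, adjusted p = 0.000268), and Cd274 (PD-L1), which restrains T cells, rose 3.49-fold (2.32 to 5.23, adjusted p = 0.000878). The T cell receptors for Cd80 and Cd86 did not pass, with Cd28 at 0.12 ± 0.08 and Ctla4 at 0.16 ± 0.17. Cd40 and Cd83 also passed with the muscle covariate (1.45 ± 0.22 and 2.21 ± 0.41, adjusted p = 0.00544 and 0.0181).

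**Figure D3:**
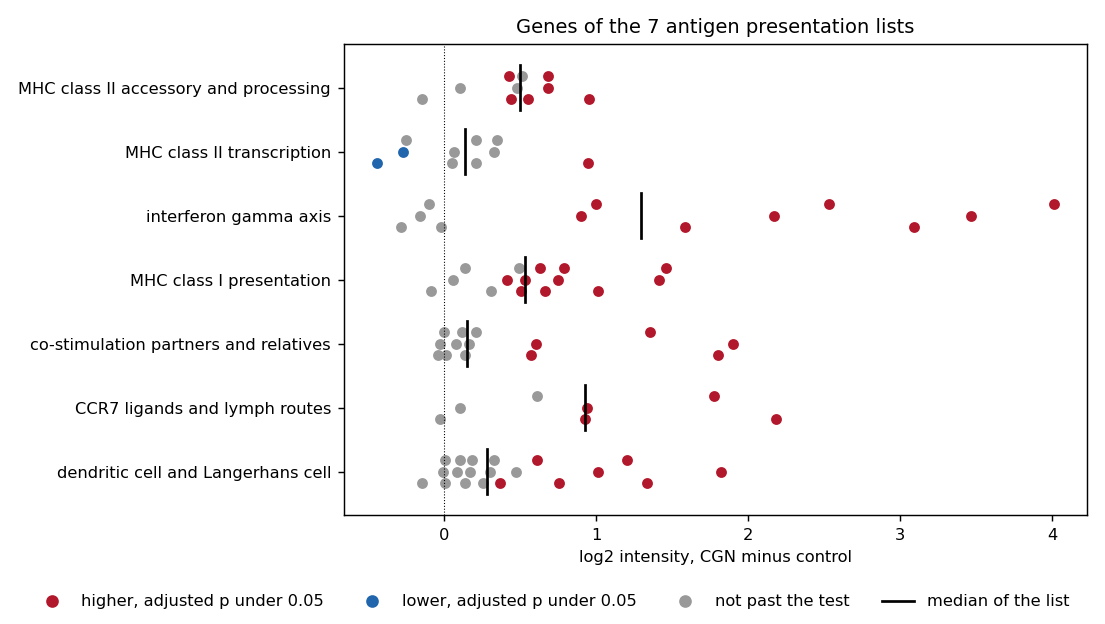
Log2 change (CGN minus control) of each measured gene in 7 lists around antigen presentation, coloured by the limma call, with a bar at the median of each list. The interferon gamma axis spreads furthest, up to 4.01, and the class II accessory genes cluster around their median of 0.50.

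The interferon gamma axis, through which Ciita is classically induced, was mostly higher. Of 12 measured genes 8 rose and 0 fell, with a median log2 change of 1.29. Il10, which restrains class II display, rose 16.1-fold (12.0 to 21.7, adjusted p = 2.42e-07), the kinase Jak2 4.51-fold (3.70 to 5.50, adjusted p = 1.23e-06) and the receptor chain Ifngr2 3.00-fold (2.52 to 3.58, adjusted p = 5.24e-06). Ifng itself was at -0.02 ± 0.12 (adjusted p = 0.925), at a geometric mean of 8.34 in controls. With the muscle covariate 7 of the 12 passed.

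MHC class I genes display peptides from inside the cell. Of 15 measured, 10 rose and 0 fell, with a median of 0.53. The peptide transporter Tap1 rose 2.66-fold (1.97 to 3.60, adjusted p = 0.000629), the immunoproteasome subunit Psmb9 2.75-fold (1.88 to 4.03, adjusted p = 0.00206) and the class I gene RT1-M3-1 1.58-fold (1.35 to 1.86, adjusted p = 0.00127). With the muscle covariate 3 passed (Tap1, Tap2 and RT1-M3-1). Class I genes are a multigene family whose probes may share targets.

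Markers of other cells that can carry class II differed in how they moved. Of 13 macrophage and monocyte markers 4 rose, 0 fell and 9 did not pass. Their summed intensity was 9132 to 12282 in controls and 24279 to 32576 in CGN. Lysozyme Lyz2 alone had a geometric mean of 5246 in controls and 18560 in CGN, and Cd14 had 804 and 4041, so the sum mostly reflects Lyz2 and Cd14. The mean log2 level of the 13 markers was 8.14, 8.34, 8.83 and 8.54 in CGN replicates 1 to 4, the same order of samples as Cd74, and 7.50 to 7.99 in controls. That order is not particular to this list. The dendritic and Langerhans cell list (5.72, 5.82, 5.95 and 5.89) and the Ccr7 ligand list (8.28, 8.41, 8.91 and 8.58) shared it. The resident macrophage genes C1qa, C1qb, C1qc and Csf1r did not pass, at -0.02, 0.14, -0.01 and 0.17. Of 8 B cell markers 0 passed limma in either direction, and 0 had an unadjusted p under 0.05. Their summed intensity was 158 to 302 in controls and 168 to 265 in CGN. Of 9 T cell markers 3 rose (Zap70, Cd8a and Cd3g), with summed intensities of 270 to 279 and 311 to 463. Of 9 neutrophil markers, a cell type that carries little class II at rest, 8 rose, with sums of 1943 to 2755 and 6098 to 16981. In the covariate fit 2 of the macrophage, 0 of the T cell and 5 of the neutrophil markers passed as higher, and the median change of the T cell list went from 0.39 to 0.10. No marker is listed at 0, and the lowest value of the table is 4.07. The part of any of these cells in the members' values was not tested.

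**Figure D4:**
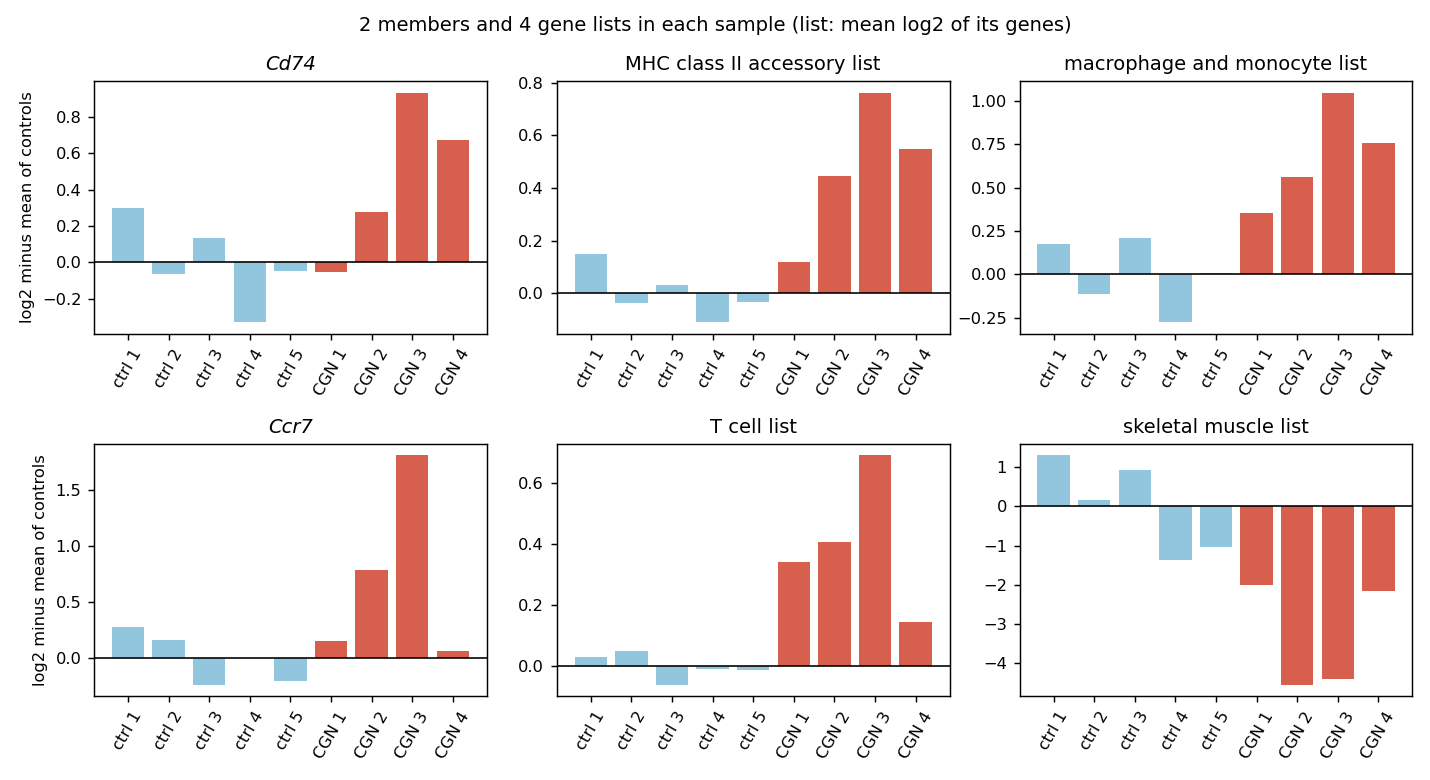
Log2 level in each of the 9 samples minus the mean of the 5 controls, for Cd74 and Ccr7 and for the mean of 4 gene lists, with controls in blue, CGN in red and a vertical scale that differs between panels. Cd74, the class II accessory list and the macrophage list share the order of the 4 CGN samples, Ccr7 follows the T cell list, and the muscle list is lowest in CGN replicates 2 and 3. The dendritic cell and Ccr7 ligand lists, not drawn, also have the order of Cd74.

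Whether members changed unequally was tested on the log2 difference of 2 genes within each sample, for 6 pairs, with exact permutation tests (2-sided, smallest possible p = 0.0159) adjusted over the 6. The change of Ciita minus that of Cd74 was -0.53 (exact p = 0.0317, adjusted p = 0.190). Cd207 changed more than Cd74 by 0.92 (adjusted p = 0.381), Ccr7 more than Cd74 by 0.24 (adjusted p = 0.686), RT1-Da more than RT1-Db1 by 0.35 (adjusted p = 0.635), RT1-Ba more than RT1-Bb by 0.28 (adjusted p = 0.686) and Cd80 more than Cd86 by 0.01 (adjusted p = 0.921). None passed after adjustment, and a single unequal pair among the 6 could not have passed, since its smallest possible adjusted p was 0.0952. The spread was wide, as for RT1-Ba minus RT1-Bb, with an SD of 0.90 in CGN.

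The genes most like 3 of the members were sought over all named genes by Pearson correlation of log2 values over the 9 samples, a description of these samples that group differences and shared tissue content both feed. For Cd74 these were the lectin receptor Clec1b (r = 0.97), RT1-DMa (r = 0.97) and Retnla (r = 0.96). RT1-DMa had the same order of all 9 samples as Cd74 (Spearman's rho = 1.00), and the deviations from group means correlated at 0.95. For Cd207 they were the threonyl-tRNA synthetase gene Tars1 (r = 0.98), Azin2 (r = 0.98) and the palmitoyltransferase gene Zdhhc13 (r = 0.97). For Ccr7 they were Olr1500 (r = 0.97), Arhgap22 (r = 0.96) and Ccbe1 (r = 0.96), and without the 2 samples farthest from the median of Ccr7 these values were 0.67, 0.62 and 0.41. Clec1b, Olr1500 and Ccbe1 were dim, at geometric means of 11.1, 7.73 and 9.84 in controls, and Ccr7 itself was at 13.9. No detection call shows whether they were above background.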

How the data were processed

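Total RNA from 9 skin samples was labelled with biotin and hybridised to 1-colour arrays, 1 per rat. The deposited values are intensities on a linear scale, which the authors computed with RMA, per the submitters' processing notes. RMA corrects background, equalises the arrays and summarises probes. No detection calls, scan dates or slides are in the files used here, and the number of arrays limits the precision. Both deposited tables were compared: 8 columns matched by name were identical, and 1 column known only by its group equalled 1 CGN sample.

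Probe sets were named by RefSeq accession or symbol (GRCr8 table), giving 19102 genes from 27508 named probe sets, each gene by its brightest probe set. Intensities were taken to log2 without pseudocount or filter and fitted with limma 3.58.1 in R 4.3.3 (lmFit, eBayes, group as the only term), with Benjamini-Hochberg adjustment over all genes and a threshold of 0.05. Every adjusted p is from this fit unless another is named. Changes are log2 CGN minus control ± SE, and ranges after folds are 95% intervals. Single differences used exact permutation tests in scipy 1.17.1.

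The members, the 7 gene lists (88 measured genes) and the 7 marker lists were chosen with earlier results of these data known. Named genes are all members, the 3 list genes with the smallest adjusted p, and genes a sentence turns on, such as known partners of a member, the latter chosen with their values known. Alternatives were a pseudocount of 16, a filter on the dimmest 30% of genes, quantile normalization, centring on array medians, mean of probe sets, all probe sets, trend and robust options, array weights, an unmoderated test, a replicate block, a muscle covariate and leaving out each sample. Background correction and slide could not be varied. One list gene is not reported here.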

Additional observations from a re-analysis of the deposited data

Results flagged for a closer look

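Of 66 groups of values examined for the members and the leading list genes, 3 held a sample whose gap to its neighbour was large against the range of its group, and chance alone flags about 1 group in 20. Cd80 was at 9.78 in CGN replicate 2, against 12.45 to 12.85 in the other CGN samples. The dimmer probe set of Cd86 was at 6.99 in control replicate 4, against 8.21 to 8.7 in the other controls. Nfyc was at 711.96 in control replicate 1, the lowest control.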

How the results depend on the processing

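Of the 10 members 5 were higher in CGN, 2 in the unmoderated test, 1 with the replicate block and 0 with the muscle covariate, and 2 to 6 when single samples were left out. That count was 3 without control replicate 3 and 2 without control replicate 4, control replicate 5 or CGN replicates 2, 3 or 4. Of the 88 list genes 41 were higher (27 with the block, 15 with the muscle covariate, 33 to 47 without single samples). Lower were 2, against 1 with quantile normalization, trend and robust options or the unmoderated test, 0 with the block or the covariate and 0 to 2 without single samples, and the same values hold for the class II transcription list, which holds both. Its 1 higher gene became 2 with quantile normalization and 0 with the covariate. For the accessory list 6 became 3 in the unmoderated test, 3 with the block and 0 with the covariate (4 to 8 without single samples). For class I 10 became 6, 5 and 3 (6 to 11, and 6 when control replicate 2 or 5, or CGN replicate 3 or 4, was dropped). For dendritic genes 7 became 4, 4 and 2 (5 to 9). Co-stimulation went from 5 to 3 with the block and 2 with the covariate (4 to 5), and the Ccr7 list from 4 to 1 with the covariate.

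Signs turned for RT1-Bb with the covariate (-0.16), for Ciita with the mean of its probe sets (0.051) or without CGN replicate 1 (0.050, single samples left out -0.18 to 0.050), for Cd80 minus Cd86 with a pseudocount of 16 (-0.076) or without single samples (-0.10 to 0.19), for Ccr7 minus Cd74 with that pseudocount (-0.051) and for RT1-Ba minus RT1-Bb without CGN replicate 2 (-0.029, range -0.029 to 0.55). None of these had passed a test. Cd74 passed with array weights (adjusted p = 0.0376). RT1-Da missed the threshold with the pseudocount (adjusted p = 0.0516). The cause of these shifts was not tested.

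The replicate block used 8 samples, without control replicate 5. Deviations of same-numbered samples correlated at -0.28, 0.04, 0.01 and -0.12, which cannot settle whether the numbers pair the samples. In 1 deposited column name a CGN sample has the number 5, which no CGN label has. The block and 1 of these correlations may therefore match that sample to the wrong control. The muscle level follows the groups closely, which widens the errors of the covariate fit. No detection calls limit what can be said of dim probe sets.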
